A study of Homo sapiens with 12 samples.

Results

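The distal long arm of chromosome 13 was followed through 60 of its genes, out of 60612 genes counted, in ZR-75-1 cells with and without *RB1*. The 60 members were chosen by name, as genes that start beyond 34 Mb of chromosome 13 (GRCh38), after an RNA comparison of *RB1*-knockout with sgControl cells in DMSO had drawn attention to this arm. Every value of that DMSO comparison is therefore given here as a description, with no test. The 6 libraries treated with abemaciclib are not among those of that comparison, and the knockout comparison in abemaciclib was tested. They come from cells of the same genotypes, however, and a fixed difference between these would be present in both treatments. The test is therefore no independent support for the choice of the region. The question asked of each gene was how closely its knockout-to-control ratio kept to a single dosage step shared by the region, and which genes departed from it.

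ZR-75-1 is an established oestrogen receptor-positive human breast cancer line. Clones were isolated after CRISPR–Cas9 editing with a non-targeting guide (sgControl) or a guide against *RB1* (*RB1* knockout), and each genotype received 500 nM abemaciclib, an inhibitor of CDK4 and CDK6, or the same volume of DMSO for 5 days. Each of the 4 groups, namely sgControl in DMSO, sgControl in abemaciclib, *RB1* knockout in DMSO and *RB1* knockout in abemaciclib, held 3 libraries described as biological replicates. The number of clones behind each genotype is not given in the sources used here, no DNA copy number was measured, and a difference between clones cannot be told apart from an effect of *RB1* loss.

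A gene that loses a copy is usually transcribed in proportion to the copies that remain, so neighbouring genes on a lost segment tend to fall by a similar factor. Some genes depart from that proportion, because feedback on their own expression, a limiting partner or the state of the cell sets their RNA level more than the template does. The distal 13q arm carries *RB1* itself among genes of very different function, including subunits of the transcription machinery, the exosome nuclease *DIS3*, the anaphase-promoting complex subunit *CDC16*, the forkhead factor *FOXO1* and the formin *DIAPH3*. CDK4 and CDK6 inhibitors hold Rb in its active form and arrest cells with intact Rb before S phase, so genes expressed with the cell cycle respond to the drug in a way that depends on *RB1*.

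Libraries held between 39907318 and 81636393 counts. *RB1* (chr13:48303744-48599436), the edited gene, averaged 4577 ± 368 normalized counts (SD, n = 3) in DMSO and 2372 ± 118 in abemaciclib when the guide was non-targeting, against 46.8 ± 6.3 and 54 ± 9.7 in the knockout, so every library matched its labelled genotype. Luminal markers (*ESR1*, *GATA3*, *FOXA1*, *KRT8*, *KRT18*, *KRT19* and *EPCAM*) were abundant in every library, whereas *KRT5*, *KRT14*, *VIM*, *PTPRC* and *PECAM1* never exceeded 5.3 normalized counts. The library of sgControl DMSO replicate 1 stood apart from replicates 2 and 3: over 57 members its ratio to their mean declined with exon length (Spearman's rho = −0.46, Pearson's r = −0.57, across genes of the same libraries), and *MYCBP2*, with long transcripts, stood at 55.0% of their mean. In bulk RNA, less RNA per cell and fewer cells that express a gene cannot be told apart.

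In DMSO the members lay at 63.1% of the sgControl level in knockout cells (median log2 fold change −0.66, range −1.16 to 0.32), and 59 of 60 had an estimate below 0. Of the 60, 54 were called lower and 1 higher by DESeq2 at an adjusted p of 0.05, against 18.2% and 19.2% of all genes tested. These counts restate the choice of the region, and nothing is read from them. The members' median against the sgControl mean was −0.66, −0.72 and −0.68 in the 3 knockout libraries, and −0.06, −0.0020 and 0.04 in the 3 sgControl libraries. The members' median was thus similar in the 3 knockout libraries, while single members ranged from −1.16 to 0.32.

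A regional step was taken from 88 other genes of the same stretch, none of them a member or *RB1* and all with 100 normalized counts or more on average. Their median log2 fold change in DMSO was −0.71, or 61.2% of control. For comparison, loss of 1 of 4 copies would leave 75%, loss of 1 of 3 copies 66.7% and loss of 1 of 2 copies 50%. The observed step lay between the last 2 of these. On the same chromosome, 48 genes that start before 34 Mb had a median of −0.03, and 11258 genes of other chromosomes had a median of −0.01. At the boundary of the rule, *NBEA*, the most proximal member (chr13:34942270-35673022), had a log2 fold change of −1.06, while the nearest well-expressed genes outside were *RFC3* (chr13:33818069-33966558), a clamp loader subunit, at −1.09, *STARD13* at −0.14 and *PDS5B* at 0.00. Of these 3 genes only *RFC3*, the nearest to the edge, lay at or below the regional step. Farther out, *FRY* (chr13:31846713-32299125) also had an estimate below it (−0.87 ± 0.19, SE). *BRCA2* and *N4BP2L2*, between *FRY* and *PDS5B*, stood at −0.29 and −0.30.

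**Figure D1:**
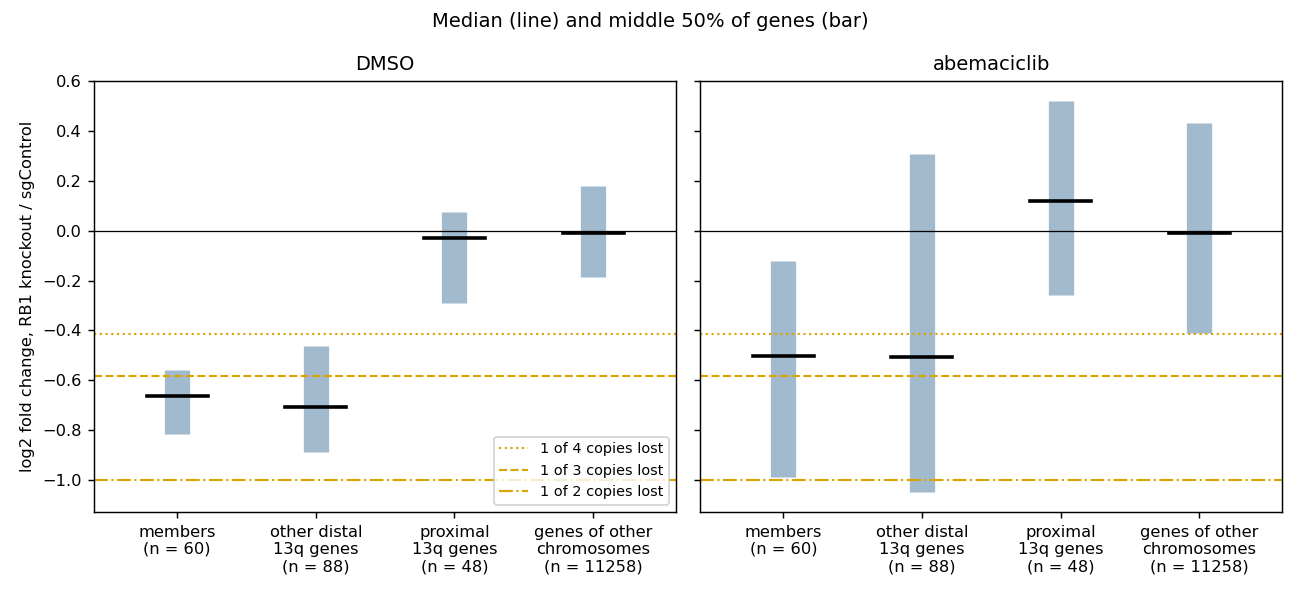
Log2 fold change of *RB1* knockout over sgControl in DMSO (left) and abemaciclib (right) for the 60 members, 88 other distal 13q genes, 48 proximal 13q genes and 11258 genes of other chromosomes. Black lines are medians, bars the middle 50% of genes, and yellow lines the values for loss of 1 of 4, 1 of 3 and 1 of 2 copies. The members and the other distal genes sit at −0.66 and −0.71 in DMSO, and all bars widen in abemaciclib.

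Each member was then placed against the step by the 95% interval of its log2 fold change. These intervals were not adjusted for the number of members, and the step was taken as a fixed value. In DMSO the interval of 38 members included the step, that of 10 lay above it (a knockout deficit smaller than the step, called buffered in RNA) and that of 12 lay below it. The median absolute deviation on the log2 scale was 0.20 over the members, 0.29 over the 88 reference genes and 0.27 over genes of other chromosomes. Over the 88 reference genes the same count gave 45, 26 and 17. Had the step been set at the loss of 1 of 3 copies, 31 members would have included it, 7 lain above and 22 below. With 1 of 2 copies the counts were 18, 42 and 0, and with 1 of 4 copies 20, 3 and 37. How many genes count as buffered therefore depends on which step is assumed.

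The 6 members closest to the step in both treatments were *DIS3*, *RCBTB1*, *INTS6*, *KPNA3*, *ING1* and *SETDB2*. *DIS3* (chr13:72752169-72782096), the catalytic nuclease of the RNA exosome, had 2695, 3099 and 2951 normalized counts in sgControl and 1947, 1887 and 1830.3 in knockout libraries in DMSO. In abemaciclib the counts were 2339.6, 2380.5 and 2385 against 1790.4, 1686 and 1674. All knockout libraries lay below all sgControl libraries in both treatments, at 64.7% and 72.5% of control. *KPNA3* (chr13:49699320-49792682), an importin-α that carries cargo into the nucleus, had 2852, 3148 and 3122 against 2000.1, 2064 and 1945 counts in DMSO. Its counts in abemaciclib were 2752, 2725 and 2788 against 1812, 1897 and 1867. The groups did not overlap in either treatment, and *KPNA3* kept almost the same ratio in both (65.8% and 67.5%).

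*INTS6*, a subunit of the Integrator complex that cleaves nascent RNA, stood at 65.1% of control in DMSO and 74.3% in abemaciclib. *ING1*, a reader of methylated histone H3, had 1162, 1163 and 1169.8 counts in sgControl and 779, 712 and 824 in knockout cells in DMSO. In abemaciclib *ING1* had 1223, 1314 and 1254 against 879.9, 929 and 865. Its ratio was 66.2% and 70.5%, with no overlap of groups. *SETDB2*, a member of the histone H3 lysine methyltransferase family, gave 66.4% and 74.6%. *RCBTB1*, which carries RCC1 and BTB domains, gave 59.6% and 66.4%. *SETDB2*, *RCBTB1* and *KPNA3* are near neighbours, whereas *INTS6*, *DIS3* and *ING1* lie farther along the arm.

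Of the 10 members above the step in DMSO, 5 were also above it in abemaciclib, namely *SPART*, *FOXO1*, *PHF11*, *TBC1D4* and *STK24*. *SPART* (chr13:36301638-36370180) encodes spartin, an endosome and lipid droplet protein, and had 346, 328 and 334.5 counts in sgControl cells in DMSO. It had 460.4, 378 and 424 in knockout cells, and was the only member with an estimate above 0 in DMSO (0.32 ± 0.10, SE). All 3 knockout libraries exceeded all 3 sgControl libraries, opposite to the direction of its neighbours. *FOXO1* (chr13:40555667-40666641), a transcription factor held out of the nucleus by AKT signalling, had 187, 163 and 179.5 counts in sgControl and 187, 186 and 145.5 in knockout cells. The groups overlapped, and the interval of its log2 fold change ran from −0.35 to 0.29, which includes 0 and excludes the step.

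*TBC1D4* (chr13:75283503-75482169), a GTPase-activating protein for Rab proteins of glucose transporter vesicles, had 2162.5, 2650.3 and 2707 counts in sgControl and 1958, 1950.1 and 1876 in knockout cells in DMSO. The 3 knockout libraries were all below the sgControl libraries, at 76.9% of control. *STK24*, a kinase of the sterile-20 family, had 9181, 8600.4 and 7801 against 5898, 6569 and 6371 counts, or 73.7%. *PHF11*, a PHD finger protein, had 452, 386 and 374 against 331, 256 and 339 counts, or 76.3%. For these 3 genes the knockout level was lower without overlap of groups, but by less than the regional step. The other 5 members above the step were *DACH1* at 95.6%, *MYCBP2* at 85.8%, *KLF5* at 77.3%, *TSC22D1* at 74.4% and *FNDC3A* at 74.4% of control. Of the 10, 5 belong to the 8 transcription factors and chromatin proteins among the members (*FOXO1*, *PHF11*, *DACH1*, *KLF5* and *TSC22D1*). This is a description only, since roles were assigned with results of these data known. The *MYCBP2* value rests on sgControl DMSO replicate 1. Without that library it stood at 72.8% of control and included the step, as did *FNDC3A* at 66.2%, while *TPT1*, a translationally controlled protein, and *TRIM13* moved above the step at 79.8% and 70.2%. In all, 12 of the 60 members changed class in DMSO without it.

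The 12 members below the step in DMSO were *NBEA*, *COG6*, *GTF2F2*, *MED4*, *ITM2B*, *NEK3*, *CKAP2*, *UCHL3*, *COMMD6*, *TM9SF2*, *CDC16* and *UPF3A*. The intervals of *ITM2B* and *UPF3A* ended at −0.72, close to the step of −0.71. With a library left out, that step ran from −0.73 to −0.70. *UCHL3* (chr13:75549483-75606020), a ubiquitin hydrolase, had 328, 241.5 and 221 counts in sgControl and 146, 100.3 and 114.8 in knockout cells, the latter 45.6% of the former. *COMMD6*, a COMM-domain protein that starts next to it, had 2616, 1932 and 1817 against 1068, 1094 and 907, or 48.3%. In both, sgControl replicate 1 was the highest of the control libraries and the knockout libraries lay apart from all 3. *MED4*, a Mediator subunit, had 2479, 2165.5 and 2401 against 1134, 1156 and 1186, or 49.3%. *TM9SF2*, an abundant transmembrane protein of endosomes and the Golgi, had 23183, 21586 and 19768 against 11208, 11089 and 11318, or 52.1%. *CDC16*, at the distal end of the arm (chr13:114234887-114272723), had 2694, 2287 and 2352 against 1250.1, 1311 and 1258, or 52.1%. None of these groups overlapped, and the knockout level of the 12 ranged from 44.8% of control for *NEK3* to 56.1% for *CKAP2*. Without sgControl DMSO replicate 1, *GTF2F2*, *ITM2B*, *UCHL3* and *COMMD6* included the step, and *VPS36*, *DIAPH3*, *UGGT2* and *CUL4A* moved below it.

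**Figure D2:**
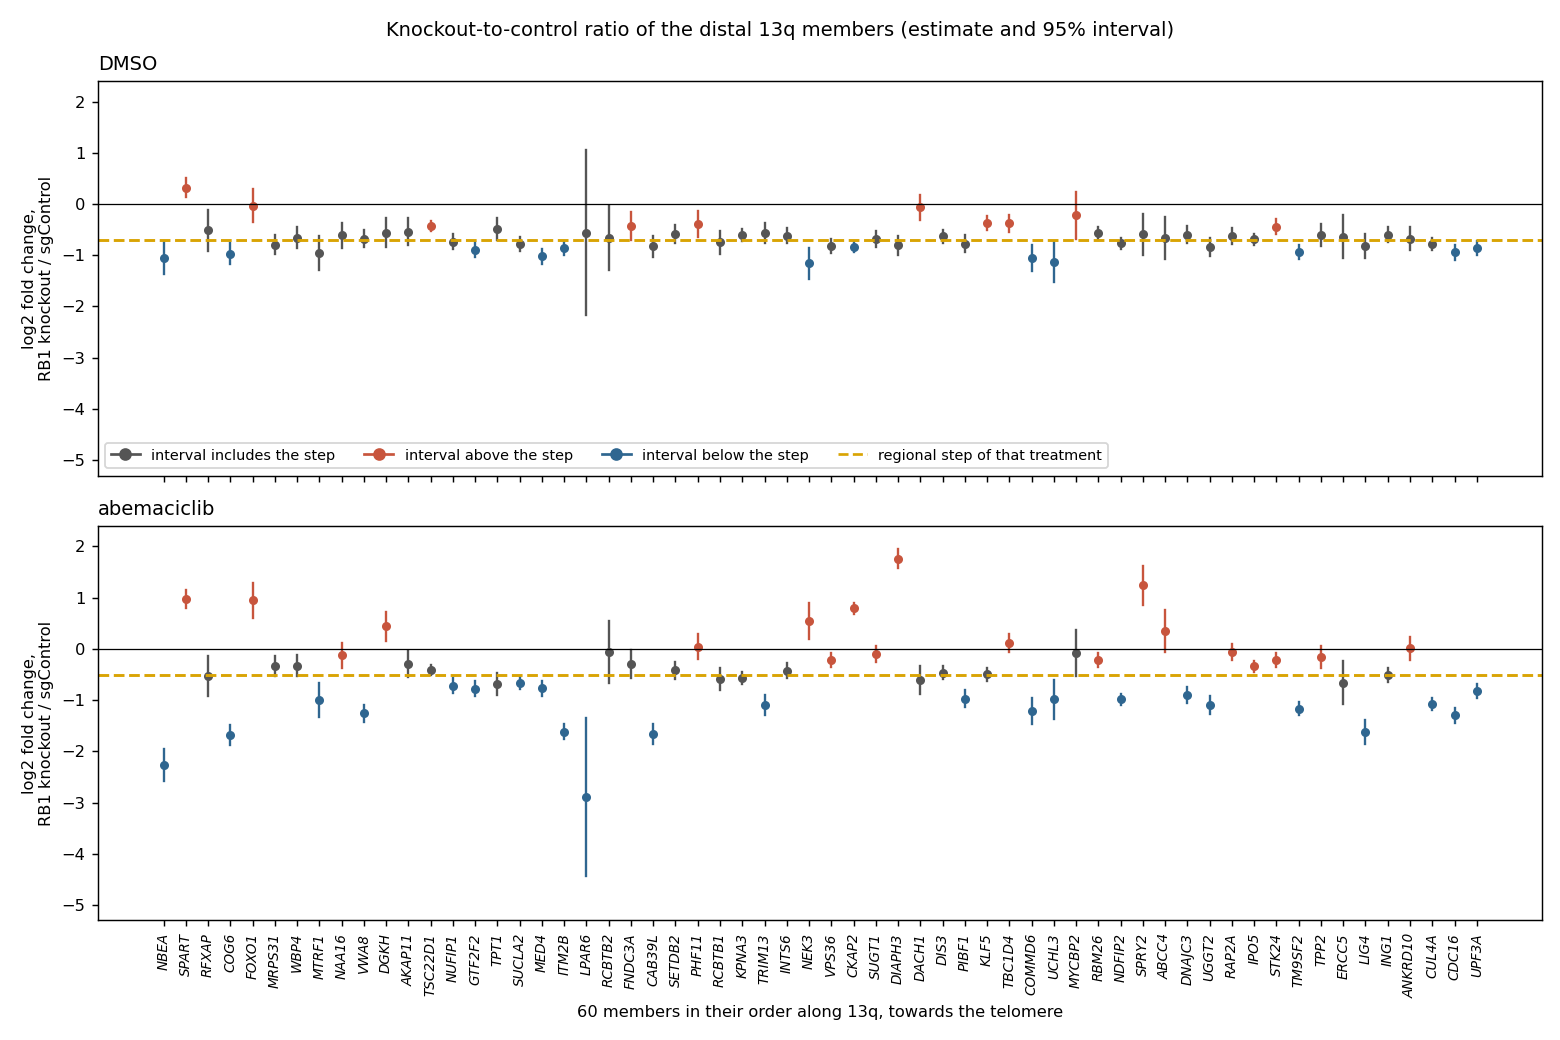
Log2 fold change of *RB1* knockout over sgControl with its 95% interval for the 60 members, in their order along 13q towards the telomere, in DMSO (top) and abemaciclib (bottom). Colours give the position of the interval against the regional step (dashed yellow, −0.71 and −0.51). In DMSO 38 intervals include the step, and in abemaciclib 18 do. *LPAR6* had at most 25 reads in any library, and its estimate is not a measure of size.

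In abemaciclib the knockout level of most members was again lower than in sgControl cells. Of the 60, 42 were called lower, 7 higher and 11 neither (DESeq2, adjusted p under 0.05), which is 70% and 11.7% of the members against 27.4% lower and 28.5% higher among all genes tested. The median was 70.6% of control (log2 fold change −0.50), and the median against the mean of drug-treated sgControl libraries was −0.50, −0.49 and −0.52 in the 3 drug-treated knockout libraries. The 88 reference genes gave nearly the same step, −0.51 or 70.3% of control, with 53 lower and 26 higher. Proximal 13q genes had a median of 0.12 and genes of other chromosomes −0.01. This step did not hold evenly along the arm: the reference genes had medians of −0.73 between 34 and 54 Mb and −0.55 beyond 94 Mb, but 0.20 for the 5 between 54 and 74 Mb and 0.43 for the 11 between 74 and 94 Mb. Both the level and the spread differed from those in DMSO. The members' median was −0.66 in DMSO and −0.50 in abemaciclib, and the step −0.71 and −0.51. With libraries scaled to their total counts, the step was −0.74 and −0.39. The median absolute deviation in DMSO and abemaciclib was 0.20 and 0.64 over the members, 0.29 and 0.91 over the reference genes and 0.27 and 0.62 over genes of other chromosomes.

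Against the step in abemaciclib, 18 members included it, 19 lay above and 23 below. For the reference genes these counts were 14, 37 and 37. Of the members that followed the step in DMSO, 13 still did so in abemaciclib (34.2% of the DMSO class and 72.2% of the abemaciclib class). The intervals of 12 others lay above the abemaciclib step, and those of 13 lay below it. Because the step itself differed (−0.71 in DMSO and −0.51 in abemaciclib), a change of class need not be a change of the member's ratio. For example, *NUFIP1* (−0.74 in DMSO and −0.72 in abemaciclib) and *SUCLA2* (−0.78 and −0.66) were among the 13 below. Members below in both treatments numbered 10 (83.3% and 43.5%), and those above in both numbered 5 (50% and 26.3%). Of the 10, *GTF2F2*, *ITM2B*, *UCHL3* and *COMMD6* included the DMSO step without sgControl DMSO replicate 1. The interval included 0 for 4 members in DMSO and for 10 in abemaciclib. In terms of sign alone, 49 members had estimates below 0 in both treatments, 10 changed from below to above 0, and *SPART* was above 0 in both. Across the 60 genes, the log2 fold changes of the 2 treatments had a Spearman's rho of 0.47 and a Pearson's r of 0.40, a description over genes that share libraries within each treatment.

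**Figure D3:**
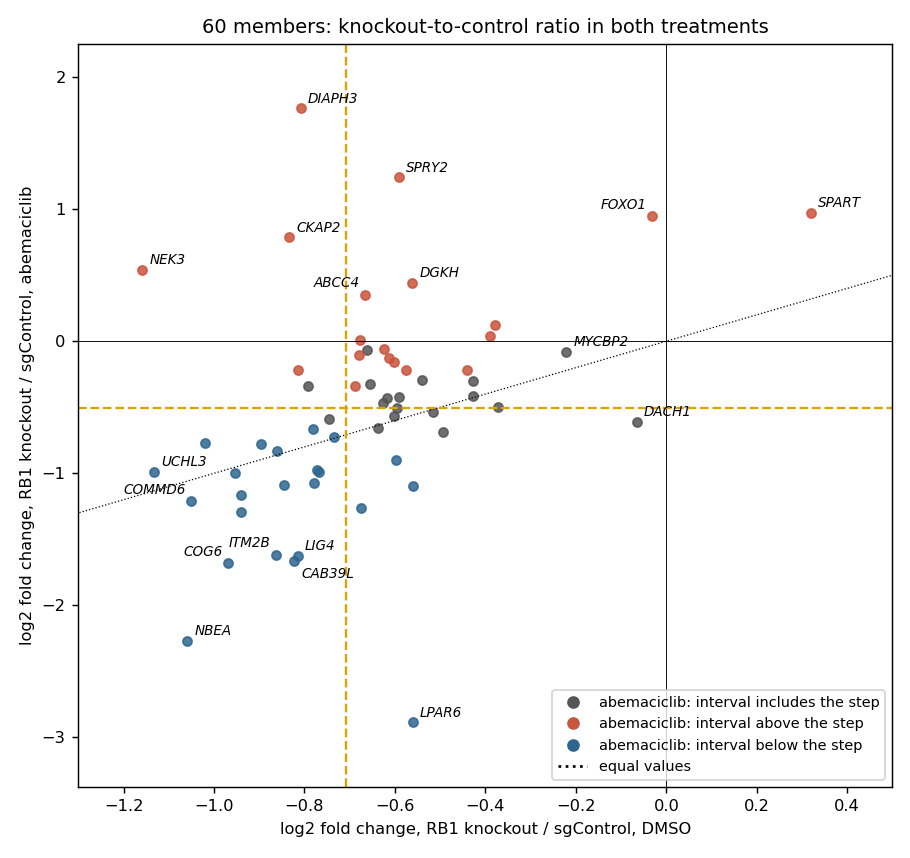
Log2 fold change of *RB1* knockout over sgControl in DMSO (horizontal) and abemaciclib (vertical) for the 60 members, with dashed yellow lines at the regional steps of −0.71 and −0.51 and a dotted line at equal values. The horizontal axis covers a narrower range than the vertical one, and colours give the position against the step in abemaciclib.

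The 7 members called higher in drug-treated knockout cells were *DIAPH3*, *SPRY2*, *SPART*, *FOXO1*, *CKAP2*, *NEK3* and *DGKH*. *DIAPH3* (chr13:59665583-60163928), a formin that nucleates actin filaments during cell division, had 377, 361 and 329 counts in drug-treated sgControl cells and 1283, 1132 and 1201 in drug-treated knockout cells. The knockout libraries were all higher, 3.39-fold on average (log2 1.76 ± 0.10, SE, adjusted p = 4.08e-70, DESeq2). In DMSO the order was the opposite, with 1837, 2239.5 and 2225 counts in sgControl and 1189, 1163.5 and 1248 in knockout cells. The knockout level was thus nearly the same in both treatments, and the control level was what differed.

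*CKAP2* (chr13:52455429-52476628), a microtubule-associated protein of the mitotic spindle, had 6014, 6226 and 6476 counts in sgControl and 3522, 3452 and 3529.8 in knockout cells in DMSO. Under the drug it had 2669, 2556 and 2512 in sgControl and 4589, 4395 and 4371 in knockout cells. Its ratio went from 56.1% of control in DMSO to a 1.73-fold higher level than control in the drug (log2 0.79 ± 0.05, adjusted p = 5.17e-54, DESeq2). *NEK3* (chr13:52132639-52159597), a kinase of the NIMA family, showed the lowest DMSO ratio of all members, with 377, 335 and 317 against 176, 130 and 156 counts. With abemaciclib the counts were 86.2, 77.9 and 65.2 in sgControl and 102, 125 and 105 in knockout cells. The order was reversed without overlap (1.46-fold, adjusted p = 0.00576, DESeq2). This call was lost without sgControl abemaciclib replicate 3 (adjusted p = 0.061, DESeq2) and without *RB1*-knockout abemaciclib replicate 2 (0.058).

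*SPRY2* (chr13:80335976-80341126), an inhibitor of receptor tyrosine kinase signalling to ERK, was a low-abundance member, with 93.1, 101 and 112 counts in sgControl and 76.5, 72.7 and 55.7 in knockout cells in DMSO. The drug-treated libraries held 57.1, 71.7 and 78.4 in sgControl and 139, 173 and 181 in knockout cells. It was the member whose level in the knockout rose most in the drug, and stood 2.37-fold above the drug-treated control (adjusted p = 7.15e-10, DESeq2). *SPART* had 361, 349 and 344 counts in drug-treated sgControl and 679.5, 678 and 708 in drug-treated knockout cells, a log2 difference of 0.97 ± 0.09 (adjusted p = 2.09e-25, DESeq2). *FOXO1* had 99.1, 79.7 and 82.8 in sgControl and 179, 184 and 139 in knockout cells, 1.93-fold higher (adjusted p = 2.17e-07, DESeq2). For both genes the groups did not overlap, and for *FOXO1* this came with a control level lower than in DMSO and a knockout level close to that in DMSO. *DGKH*, diacylglycerol kinase eta, was 1.36-fold higher (log2 0.44 ± 0.14, adjusted p = 0.00499, DESeq2).

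Among the members called lower in the drug, the deficit was greatest in *NBEA*, *COG6*, *CAB39L*, *LIG4* and *ITM2B*, with *LPAR6* too low in counts to rank. *NBEA* encodes neurobeachin, a large scaffold of vesicle traffic, and had 814, 971.5 and 790.2 counts in drug-treated sgControl and 162, 192 and 182 in drug-treated knockout cells. This was 20.8% of control (log2 −2.27 ± 0.16, adjusted p = 4.41e-46, DESeq2). Its counts in DMSO were 303.5, 461 and 452 against 180.3, 204 and 200.1, so the knockout libraries were lower in both treatments. *COG6* (chr13:39655627-39791665), a subunit of the Golgi tethering complex COG, had 1265, 1358 and 1558.5 against 731, 630.2 and 779.8 counts in DMSO. In abemaciclib it had 1827, 1878 and 1975 against 530, 596 and 642.5, or 31.2% of control (adjusted p = 8.32e-58, DESeq2). As for *NBEA*, the 3 drug-treated control libraries were the highest of the 12.

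*CAB39L* (chr13:49308650-49444064), a scaffold partner of the kinase LKB1, had 1006, 861 and 822 against 504, 499 and 515 counts in DMSO. After abemaciclib there were 1509, 1500.2 and 1535 against 425, 454 and 551, or 31.5% of control (adjusted p = 1.08e-58, DESeq2). *LIG4* (chr13:108207439-108218368), the ligase of non-homologous end joining, had 344, 349 and 374 against 232, 174 and 205 in DMSO. In drug-treated libraries there were 472, 506 and 502 against 149.5, 169.5 and 161, or 32.5% (adjusted p = 1.43e-40, DESeq2). *ITM2B* (chr13:48232612-48270357), an abundant integral membrane protein, had 7741, 6947 and 6582 against 4064.5, 3668 and 3958 in DMSO. In abemaciclib the counts were 12659, 11474 and 11893 against 4026, 3736 and 3989, or 32.6% (adjusted p = 6.12e-111, DESeq2). In all 3 genes the knockout libraries lay below every control library in both treatments.

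*LPAR6* (chr13:48389567-48444704), a receptor for lysophosphatidic acid, and *RCBTB2*, an RCC1 and BTB domain protein, both lie inside the annotated span of *RB1*. *LPAR6* had 58 reads over the 3 drug-treated sgControl libraries and 7 over the 3 drug-treated knockout libraries, a ratio of 7.33 with a 95% counting interval from 3.34 to 19.0. In DMSO the reads were 17 and 8, a ratio of 1.41 with an interval from 0.577 to 3.78. Within sgControl cells, abemaciclib gave a ratio of 4.06 to DMSO, with an interval from 2.33 to 7.43. These intervals cover counting error only. *RCBTB2*, with a mean of 39.3 normalized counts, had an interval from −1.28 to −0.04 in DMSO and from −0.66 to 0.53 in abemaciclib, each of which includes its step.

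**Figure D4:**
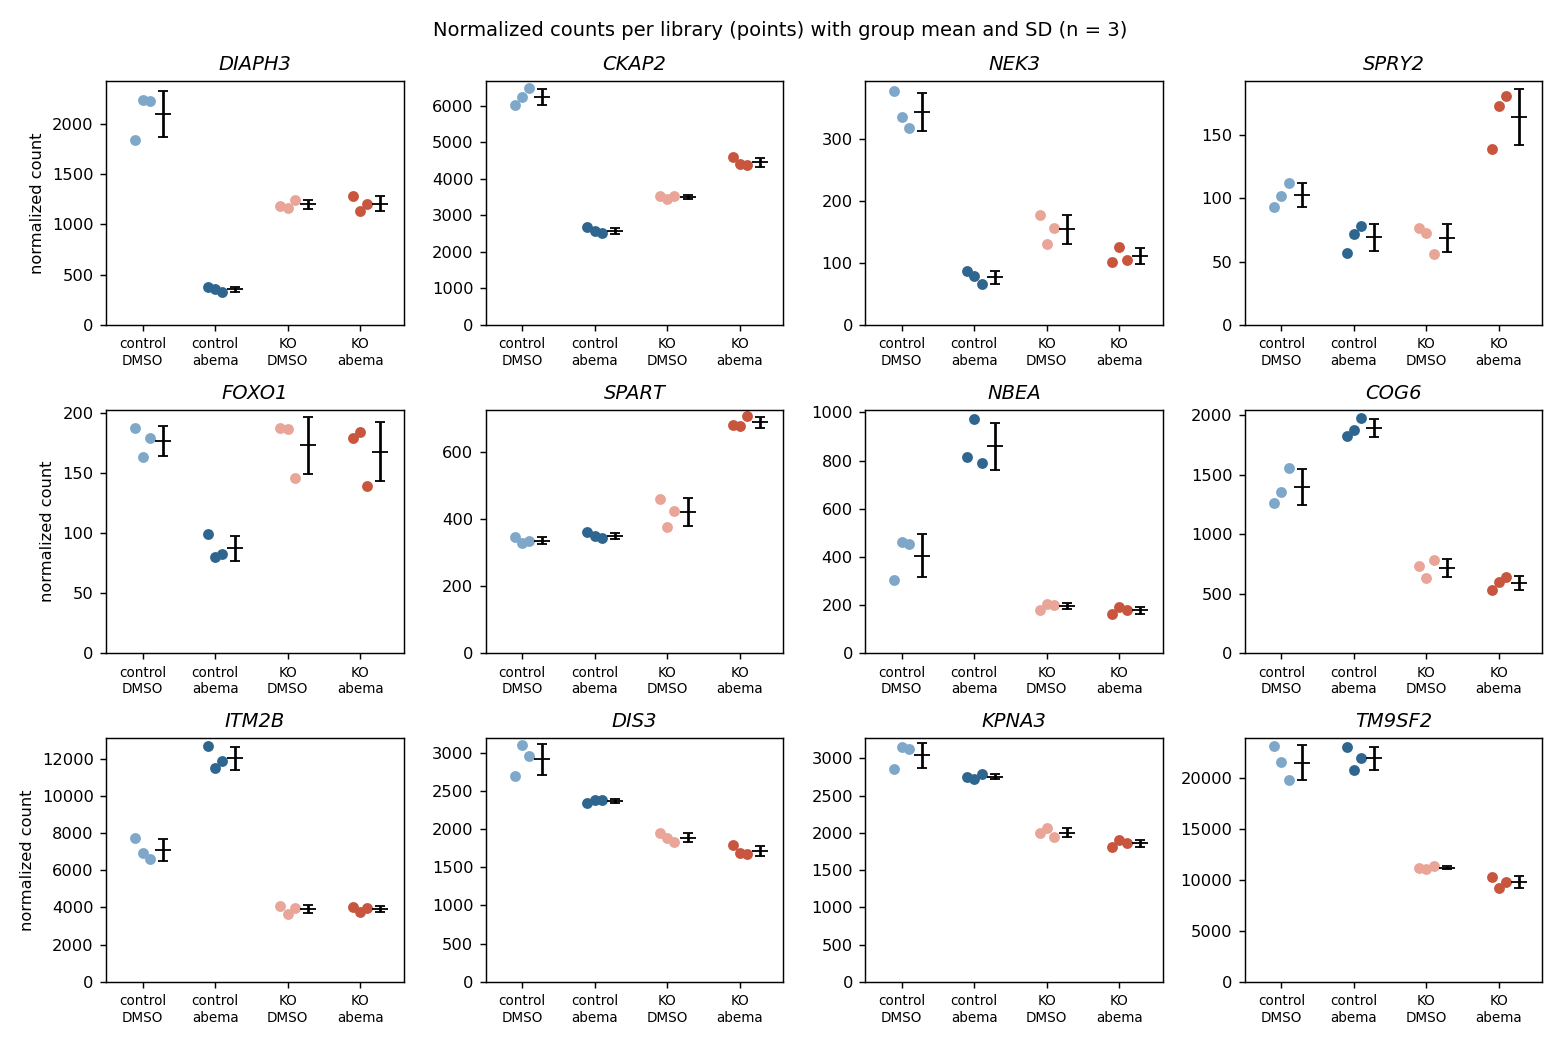
Normalized counts of 12 members in each library (points, in replicate order) with the group mean and SD (n = 3), for sgControl and *RB1* knockout (KO) in DMSO and abemaciclib (abema). Vertical axes start at 0. *DIAPH3*, *CKAP2*, *NEK3* and *FOXO1* are lowest in drug-treated controls, *NBEA*, *COG6* and *ITM2B* are highest there, and *DIS3* and *KPNA3* keep a lower knockout level in both treatments.

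Grouped by role, the 8 genes for RNA synthesis, processing and decay were all called lower in drug-treated knockout cells, at medians of −0.70 in DMSO and −0.59 in abemaciclib. *GTF2F2* (chr13:45120510-45284893), the small subunit of the initiation factor TFIIF, had 2260.2, 2009.5 and 1956 against 1131, 1074 and 1139 counts in DMSO. The counts in abemaciclib were 1733, 1569 and 1712 against 950.1, 981 and 993.5, 58.4% of control (adjusted p = 4.37e-24, DESeq2). *UPF3A*, a factor of nonsense-mediated decay at the distal end of the list, stood at 55.1% in DMSO and 56.3% in abemaciclib. The 4 mitochondrial members (*MRPS31*, *MTRF1*, *SUCLA2* and *VWA8*) and both importins (*KPNA3* and *IPO5*) were also all called lower in the drug, beside 70% of all 60 members. Of the 9 members for ubiquitin transfer, peptide cleavage and protein folding, 7 were lower, none was higher and their median was −0.99.

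The 8 transcription factors and chromatin proteins had the weakest median deficit in DMSO (−0.41) of the roles, and −0.46 in abemaciclib, where 6 were lower and 1 higher. *DACH1*, a homologue of Drosophila dachshund, had 212, 248 and 219.9 against 219, 220.4 and 210.3 counts in DMSO, where the groups overlapped. Under abemaciclib the counts were 184, 199 and 194 against 136, 123 and 120, and the knockout was lower (log2 −0.61 ± 0.14, adjusted p = 2.15e-05, DESeq2). *DACH1* therefore lay above the step in DMSO and included it in the drug. *KLF5*, a Krüppel-like factor, gave 77.3% and 70.7% of control, and *TSC22D1*, a leucine zipper protein, 74.4% and 75%.

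The 8 members for cell division and genome maintenance divided in the drug, with 4 lower (*CDC16*, *LIG4*, *PIBF1* and *ERCC5*), 3 higher (*DIAPH3*, *CKAP2* and *NEK3*) and 1 called in neither direction (*SUGT1*, a co-chaperone of kinetochore assembly, log2 −0.10 ± 0.08). Of 8 membrane traffic genes 5 were lower and 1, *SPART*, was higher, while *TBC1D4* and *RAP2A* were called in neither direction. Of 5 signalling genes 3 were lower and 2 higher. Of the remaining 8 members only 3 were called lower (*TPT1*, *ITM2B* and *RCBTB1*) and none higher. Roles were assigned with results of these data known, and the counts are descriptions of small groups, read beside the 70% lower and 11.7% higher over all 60 members.

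The response to abemaciclib was read within each genotype, where a difference in copy number between clones is on both sides of the comparison. These comparisons share the DMSO libraries on which the region was chosen. In sgControl cells 22 members fell and 14 rose (36.7% and 23.3%, against 24.8% and 25% of all genes tested), and 24 passed in neither direction. Many of all genes tested are weakly expressed, whereas 57 members average 100 normalized counts or more. Genes of other chromosomes with that average gave 38.2% and 34.8%, so the members show no excess beside them. In knockout cells 10 members fell and 8 rose (16.7% and 13.3%), and 42 passed in neither. The shares were 15.1% and 14.9% of all genes tested, and 22.7% and 18.4% of those genes of other chromosomes. Leaving out *RB1*-knockout DMSO replicate 1 left 3 members that fell and 5 that rose. The members' medians were −0.04 and 0.04, both near 0. Of the 22 that fell in sgControl cells, 4 fell, 2 rose and 16 passed in neither direction in the knockout. Of the 14 that rose in sgControl cells, 2 rose, 2 fell and 10 passed in neither, and a missing call does not show an absent response.

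In sgControl cells the strongest declines were in *DIAPH3* (log2 −2.56 ± 0.10, adjusted p = 1.06e-152, DESeq2), *NEK3* (−2.17 ± 0.17, adjusted p = 5.2e-38) and *CKAP2* (−1.28 ± 0.05, adjusted p = 3.63e-144). *FOXO1* fell there too, to 49.2% of its DMSO level. The strongest rises, apart from *LPAR6*, were in *NBEA* (1.08 ± 0.15, adjusted p = 1.7e-12, DESeq2) and *VWA8*, a mitochondrial AAA ATPase (0.85 ± 0.08, adjusted p = 1.29e-24). *VWA8* had 1526, 1831.5 and 1787 counts in DMSO and 3145, 3206 and 2908 in abemaciclib in sgControl cells. In knockout cells it had 1037, 1097 and 1090.2 in DMSO and 1204, 1277 and 1383 in abemaciclib.

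In knockout cells *SPRY2* (1.27 ± 0.20, adjusted p = 6.15e-09, DESeq2), *SPART* (0.71 ± 0.09, adjusted p = 3.67e-13) and *CKAP2* (0.35 ± 0.05, adjusted p = 1.42e-10) rose most. *DACH1* (−0.78 ± 0.14, adjusted p = 2.6e-07, DESeq2), *NEK3* (−0.47 ± 0.17, adjusted p = 0.0238) and *LIG4* (−0.34 ± 0.13, adjusted p = 0.0353) fell most. The *LIG4* fall lost its call with total-count scaling, without independent filtering, with only the 6 libraries compared, with a replicate block and without any of 5 single libraries. *CKAP2* fell in sgControl and rose in knockout cells. *SPRY2* also fell in sgControl (−0.56 ± 0.20, adjusted p = 0.01, DESeq2), but this call was lost without DMSO replicate 3 (adjusted p = 0.069) and without abemaciclib replicate 1 (0.076). *NEK3* fell in both genotypes, and its call in the knockout was lost without *RB1*-knockout DMSO replicate 1 (adjusted p = 0.15, DESeq2) or 3 (0.073) and without abemaciclib replicate 1 (0.10) or 3 (0.090).

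The interaction compares the drug response of the knockout with that of sgControl cells, which equals the change of the knockout-to-control ratio from DMSO to abemaciclib. It subtracts the DMSO ratio on which the region was chosen, so its values and counts are given as a description, and an excess of positive values over all genes says nothing about the members. It was negative for 13 members and positive for 20 (21.7% and 33.3%, against 20.3% and 21.1% of all genes tested), with 27 called in neither direction. Among genes of other chromosomes with 100 normalized counts or more on average the shares were 30.3% and 29.5%. The median over the 60 members was 0.13. The 5 largest positive values were those of *DIAPH3* (2.57 ± 0.13), *SPRY2* (1.83 ± 0.28), *NEK3* (1.70 ± 0.24), *CKAP2* (1.62 ± 0.07) and *ABCC4* (1.02 ± 0.29). *ABCC4*, an organic anion efflux pump, had 109, 116 and 128 counts in sgControl and 65.6, 73.8 and 83.0 in knockout cells in DMSO. With the drug it had 72.2, 67.3 and 98.7 in sgControl and 82.7, 111 and 111 in knockout cells, and the groups overlapped. The 5 largest negative values were those of *NBEA* (−1.21 ± 0.22), *CAB39L* (−0.84 ± 0.15), *LIG4* (−0.81 ± 0.17), *ITM2B* (−0.75 ± 0.10) and *COG6* (−0.71 ± 0.15). With libraries scaled to their total counts, the median of all genes moved by 0.11 in the knockout comparison in abemaciclib, −0.13 in the sgControl drug response and 0.14 in the interaction, and 8 members instead of 13 were negative.

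**Figure D5:**
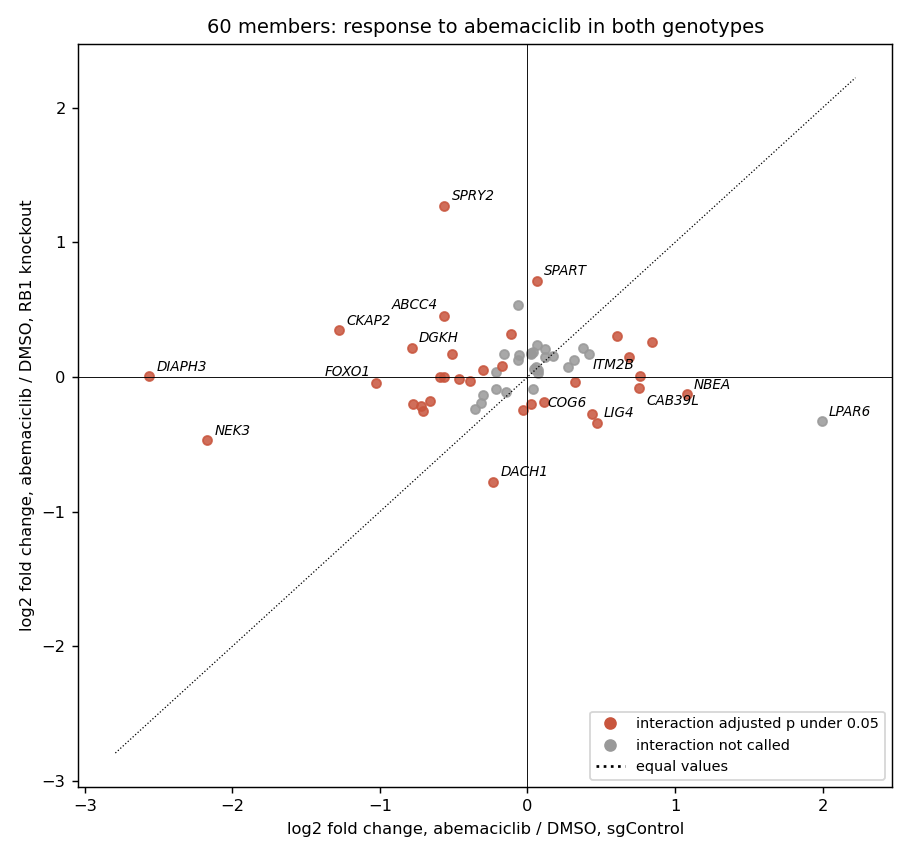
Log2 fold change of abemaciclib over DMSO in sgControl (horizontal) and *RB1*-knockout cells (vertical) for the 60 members, with red points where the interaction had an adjusted p under 0.05. Values spread from −2.56 for *DIAPH3* to 1.08 for *NBEA* in sgControl cells, leaving aside *LPAR6*, and from −0.78 to 1.27 in the knockout.

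The members' ratios were also set against position along the arm. In DMSO the members' median was −0.66 for 33 genes between 34 and 54 Mb, −0.63 for 5 between 54 and 74 Mb, −0.59 for 7 between 74 and 94 Mb and −0.68 for 15 beyond 94 Mb. In abemaciclib these medians were −0.43, −0.50, −0.22 and −0.66, beside the reference genes' −0.73, 0.20, 0.43 and −0.55 in the same stretches. Across the 60 genes Spearman's rho of the log2 fold change with gene start was −0.10 in DMSO and −0.01 in abemaciclib, and with mean normalized count −0.05 and −0.13. With exon length it was 0.22 and 0.08, beside the length-dependent difference of sgControl DMSO replicate 1 described above, whose part in this value was not tested.

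Promoter sequence of the members was searched for motifs. Among the members, 3 pairs have outermost annotated starts (GENCODE) that lie head to head within 1000 bases of each other. RefSeq promoter windows (GRCh38.p14, mostly upstream of the start and including its first 50 bases) were matched by symbol for 56 of the 60 members. The 3 pairs were *CAB39L* with *SETDB2* (209 bases between their annotated starts), *DIS3* with *PIBF1* (36 bases) and *COMMD6* with *UCHL3* (43 bases). The RefSeq window of *CAB39L* (chr13:49401493-49401792) lies inside the gene, away from that of *SETDB2*, so no shared window is shown for this pair. For the other two pairs the window of the plus-strand gene, which overlaps a window of its partner, is printed 5′ to 3′ on the plus strand, with capitals marking matches to an E2F-type site.
*PIBF1* and *DIS3*, chr13:72781883-72782182: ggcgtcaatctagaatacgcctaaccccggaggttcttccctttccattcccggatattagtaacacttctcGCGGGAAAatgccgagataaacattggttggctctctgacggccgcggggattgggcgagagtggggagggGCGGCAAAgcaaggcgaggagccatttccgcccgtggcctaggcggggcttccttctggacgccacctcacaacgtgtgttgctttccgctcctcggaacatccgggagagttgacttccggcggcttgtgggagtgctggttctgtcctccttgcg
*UCHL3* and *COMMD6*, chr13:75549252-75549551: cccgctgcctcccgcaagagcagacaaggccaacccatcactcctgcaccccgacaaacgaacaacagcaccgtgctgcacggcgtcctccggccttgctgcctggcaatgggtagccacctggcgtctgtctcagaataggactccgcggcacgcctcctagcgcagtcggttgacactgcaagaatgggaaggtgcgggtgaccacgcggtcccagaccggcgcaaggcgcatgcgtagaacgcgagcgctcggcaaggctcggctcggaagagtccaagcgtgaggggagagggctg

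In DMSO the genes of each pair had the same position against the step: both included it in the *CAB39L*–*SETDB2* and *DIS3*–*PIBF1* pairs, and both lay below it in the *COMMD6*–*UCHL3* pair. In abemaciclib only *COMMD6* and *UCHL3* still shared a class, at 43.1% and 50.4% of control. *SETDB2* stood at 66.4% in DMSO and 74.6% in abemaciclib, and *CAB39L* at 56.5% and 31.5%. *DIS3* stood at 64.7% and 72.5%, and *PIBF1*, a centrosomal protein, at 58.5% and 51%.

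E2F-type sites were searched as TTTGGCGC, TTTCCCGC, TTTCGCGC and TTTGCCGC on both strands. In the first promoter listed per gene they were found in 5 of 56 members (*DIS3*, *PIBF1*, *NDFIP2*, *TPP2* and *CDC16*), against 3.33% of 27305 promoters. The 2 matches of the *DIS3*–*PIBF1* window are the same bases counted for both genes. The cell cycle homology region TTTGAA was found in 7 of 56 (*SPART*, *RFXAP*, *MTRF1*, *DGKH*, *TSC22D1*, *GTF2F2* and *DACH1*), against 15.4% of promoters. The NRF1-type motif was found in *COG6* and *NAA16*, against 1.36%. These letters were not found in the windows of *DIAPH3*, *CKAP2* or *NEK3*, the cell division members that fell most in drug-treated sgControl cells. An E2F-type site that ends in GCGC can overlap the start of an NRF1-type motif, and a match is a description of sequence only.

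The *DIAPH3* window is shown because this gene had the largest interaction of the members, and is printed 5′ to 3′ on its own strand, the minus strand, with no capitals because no searched motif was found in it.
*DIAPH3*, chr13:60163879-60164178: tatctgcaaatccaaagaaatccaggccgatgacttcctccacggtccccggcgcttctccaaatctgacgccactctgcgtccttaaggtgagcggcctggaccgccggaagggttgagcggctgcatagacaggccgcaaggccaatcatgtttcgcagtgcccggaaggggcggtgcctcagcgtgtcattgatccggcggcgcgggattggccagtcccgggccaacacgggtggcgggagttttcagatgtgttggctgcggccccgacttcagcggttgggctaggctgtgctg

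Several members cannot be counted wholly apart from other loci. Exons of *DIS3* overlap those of *BORA*, exons of *STK24* those of *FARP1*, exons of *ING1* those of *CARS2* and exons of *CUL4A* those of *PCID2*, all on the opposite strand. On the same strand *ERCC5* overlaps the readthrough gene *BIVM-ERCC5*, *VPS36* overlaps *THSD1* and *TRIM13* overlaps *KCNRG*. Reads of *TPT1*, *SUGT1* and *MRPS31* may be shared with their pseudogenes, which was not examined here. The setting of strand in the counting is not given in the sources used here, so the split of reads at these loci is uncertain.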

How the data were processed

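RNA of ZR-75-1 cells was sequenced in 4 groups of 3 libraries. The authors deposited raw counts per gene, made with STAR 2.7.5b on hg38 and featureCounts 2.0.1 per the labels. The kit was NEBNext Directional per the labels, whereas the study's methods give a 3′ mRNA kit. Which of them made these libraries was not settled, and it bears on how counts depend on transcript length. Rows without a gene name (44, with 0% of counts) were left out. Counts were fitted with DESeq2 1.42.0 in R 4.3.3 (group as the only term, all 12 libraries, median-of-ratios scaling, no shrinkage, two-sided Wald test, Benjamini–Hochberg adjustment over the genes left by independent filtering). Adjusted p = 0.05 was the threshold. Normalized counts are counts divided by size factors and are not corrected for gene length. Gene positions came from GENCODE 44 (GRCh38). Members and gene lists were chosen with earlier results of these data known. Library values were named for *RB1*, members on the same side of the step in both treatments, the 6 closest to it, and the largest interactions (5 per direction) and drug responses (3 per genotype and direction).

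Replicate numbers are shared across groups. All 3 same-numbered pairs had correlated deviations (over 0.1) in 1 comparison only, the knockout in abemaciclib (0.14, 0.24 and 0.11); in the drug response of sgControl cells the correlations were 0.24, 0.20 and −0.07. In the former a replicate block gave 43 lower and 7 higher members. The closest pair of replicates differed by more than sampling noise. edgeR 4.0.16 (quasi-likelihood), other scalings, filters, sample sets and left-out libraries were tried, and the fits were tested on simulated data. One locus is not reported here.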

Additional observations from a re-analysis of the deposited data

Results flagged for a closer look

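The DESeq2 interaction of drug and genotype had an adjusted p under 0.05 for 33 of the 60 members, 21.7% negative and 33.3% positive. The shares were 20.3% and 21.1% of all genes tested. Among genes of other chromosomes with 100 normalized counts or more on average they were 30.3% and 29.5%. Because the interaction subtracts the DMSO ratio on which the region was chosen, this is a description and no independent test. The 19 of these 33 members that were named carry the following values of the knockout response minus the sgControl response (log2). Positive values were those of *DIAPH3* (2.57), *SPRY2* (1.83), *NEK3* (1.70), *CKAP2* (1.62), *ABCC4* (1.02), *FOXO1* (0.98), *SPART* (0.65), *TBC1D4* (0.50), *PHF11* (0.43) and *MED4* (0.25). Negative values were those of *NBEA* (−1.21), *CAB39L* (−0.84), *LIG4* (−0.81), *ITM2B* (−0.75), *COG6* (−0.71), *VWA8* (−0.59), *DACH1* (−0.55), *CDC16* (−0.36) and *TM9SF2* (−0.23). *MED4*, *PHF11* and *TM9SF2* lost this call under several alternatives, and *DACH1* with total-count scaling.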

How the results depend on the processing

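A replicate block gave 43 lower and 7 higher members in the knockout comparison in abemaciclib, and moved no count of members by more than 1.5 times. Total-count scaling gave regional steps of −0.74 in DMSO and −0.39 in abemaciclib, member medians of −0.39 (knockout in abemaciclib), −0.17 (drug in sgControl) and 0.27 (interaction), and 8 negative interactions. Reference genes with a mean of at least 1000 gave a DMSO step of −0.63. Without independent filtering 6 members fell with the drug in the knockout. With the loss of 1 of 3 copies as the step, 22 members lay below it in DMSO. With 1 of 2 copies 18 included it, 42 lay above and 0 below in DMSO, and 10, 41 and 9 in abemaciclib. With 1 of 4 copies the DMSO counts were 20, 3 and 37.

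Leaving out a library at a time gave member medians from −0.72 to −0.65 in DMSO, from −0.52 to −0.46 in abemaciclib and from 0.0040 to 0.060 for the drug in the knockout. The abemaciclib step ran from −0.54 to −0.47. Members above the step in DMSO numbered from 7 to 16 (16 without sgControl DMSO replicate 3). Members that fell with the drug in the knockout numbered from 3 to 12, and those that rose from 5 to 11. Each of the 6 knockout libraries moved at least 1 of these last counts by over 1.5 times when left out. Of 124 tests of named members, 80 were called, 21 of these lost the call in at least 1 of 20 alternatives and none turned direction with a call. The causes were not tested. Depth limits *LPAR6*, *RCBTB2* and *ABCC4* most, and clone and genotype cannot be told apart.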

Other observations

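Members not singled out by the naming rule also had called differences in drug-treated cells, and these were chosen after their values were seen. In the knockout, *DNAJC3* and *UGGT2*, which act on protein folding in the endoplasmic reticulum, stood at 66.1% and 55.6% of control in DMSO. In abemaciclib they stood at 53.6% (adjusted p = 2.27e-26, DESeq2) and 46.9% (adjusted p = 6.2e-34). *CUL4A*, a cullin scaffold of ubiquitin ligases, stood at 58.3% in DMSO and 47.4% in abemaciclib (adjusted p = 2.82e-64, DESeq2), and *NDFIP2*, an adaptor of NEDD4-family ligases, at 58.7% and 50.4% (adjusted p = 1.02e-61, DESeq2). *IPO5*, an importin, went the other way, from 62.1% to 79.1% of control, with an interaction of 0.35 ± 0.08 (SE), given as a description. *TPT1*, the most abundant member, stood at 71.1% and 62.1%, with the reservation about its pseudogenes.

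*MYCBP2*, *RAP2A*, *TPP2*, *NAA16* and *ANKRD10* were called in neither direction in drug-treated knockout cells, with log2 fold changes of −0.08, −0.06, −0.16, −0.13 and 0.01. Their estimates in DMSO were −0.22, −0.62, −0.60, −0.61 and −0.68.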
